A study of Mus musculus with 6 samples.

Results

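RNA of heme-treated C17.2 cells was compared with RNA of control cells across 7171 loci, and each locus was set against every other library of the study. A locus is a StringTie gene identifier, and its level is the sum of FPKM (fragments per kilobase of transcript, scaled to the size of the library) over its listed transcripts. The loci described are the 2381 of 7171 at which the heme library lay outside both control and both neural induction libraries. It was above the other 4 at 982 loci, 13.7% of all, and below them at 1399, 19.5% of all. The members were chosen by these values, so their counts and margins are descriptions and carry no test. The test is limma across all 7171 loci.

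Heme is an iron-bearing porphyrin that cells make in mitochondria and the cytosol, starting with the enzyme Alas1 and ending with Fech, which inserts the iron. Free heme binds regulators such as Bach1, and in many cells this releases Hmox1, the inducible heme oxygenase that opens the ring and frees its iron, while Alas1 is restrained. Iron regulatory proteins in turn set the levels of the transferrin receptor and of ferritin according to the iron in the cell.

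C17.2 is an immortalised mouse neural stem cell line, labelled CD1 x C57BL/6. The labels give 3 groups of 2 biological replicates: control cells in growth medium (DMEM/F12 with fetal bovine serum), heme-treated cells, and cells cultured for neural induction in Knockout DMEM with GlutaMAX, N2 supplement and BDNF, a neurotrophin, at 10 ng/ml. For the heme-treated cells the dose, the duration and the medium are not stated in the labels. The cells are 1 line, and whether the replicates came from separate cultures is not stated beyond the word biological, so p-values measure the spread between these libraries.

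The heme replicate 2 column equals the replicate 1 column times a factor of 1.25 to 1.5 at every one of 13963 transcripts, so heme was counted as 1 library and replicate 1 was used. Mapped sequence was 4.14 to 4.56 gigabases in the 5 distinct libraries and 4.30 in the heme library. Control replicate 2 stood apart: it lay outside the other 4 at 4294 loci (59.9%), against 2340 to 2548 for each of the other 4 libraries. The heme library was nearest to control replicate 1, with a median absolute log2 difference of 0.09, against 0.20 from control replicate 2 and 0.21 between the control replicates. Of the progenitor markers, 8 of 21 were among the loci analysed here. Their summed level was 1052 FPKM in the heme library and 928 to 1068 over all 5. Nes, nestin, was at 128 FPKM in the heme library, 132 in both controls, and 123 and 108 after induction. Sox2, a transcription factor of neural progenitors, was at 18.6 FPKM in the heme library and 13.6 to 19.8 in the others. Both defining markers were thus present in every library, while Pax6, Msi1 and Sox9 were not among the loci analysed here. Mesenchymal markers (8 of 11 listed, among them Acta2 and Col1a2) summed to 4526 to 5556 FPKM, and to 5378 in the heme library. Of 14 erythroid and 10 endothelial markers 0 were among these loci, of 15 microglial markers 1, of 9 astrocyte markers 1 (Gja1) and of 10 oligodendrocyte markers 3. In the heme library Gja1 was at 81.2 FPKM and the oligodendrocyte sum at 129.6, each inside the range of the other 4 libraries. In bulk RNA, fewer cells of a type and less RNA per cell cannot be told apart.

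Most of the loci outside the other libraries were outside by little. The margin is the gap between the heme library and the nearest of the other 4 on the log2(FPKM + 1) scale, given as a fold. Its median over the 2381 loci was 1.04-fold, its 90th percentile 1.34-fold, and at 1716 loci (72.1%) it was under 1.1-fold. Being outside held at 33.2% of loci for heme, against 35.5% for control replicate 1 and 32.6% and 35.5% for the induction replicates, so heme lay within the range of these libraries. A margin of at least 1.5-fold was found at 153 loci (2.13%), of which 53 were above (0.739%) and 100 below (1.39%). The same margin was reached at 123 loci (1.72%) in control replicate 1, 308 in control replicate 2, and 176 and 186 in the induction replicates. Just inside it lay Mid1ip1 above (1.51-fold) and Bcap29 below (1.503-fold), and just outside it Zfp644 above (1.49-fold) and Arih2 below (1.48-fold). The lean towards lower loci depended on the scale of the libraries. After rescaling each library by its median ratio, the heme library was above the others at 1200 loci and below them at 1160.

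In the test across all loci, 3 loci fell and 0 rose. These 3 (0.0418% of 7171) are unnamed, each has 1 listed transcript, and each was listed at 0 in the heme library. The first, MSTRG.4861 (chr12:109894378-109895125, GRCm38), was at 44.9 and 44.0 FPKM in the controls and at 43.3 and 45.8 after induction. The second, MSTRG.4724 (chr12:86845759-86846508), was at 21.3 and 19.9 FPKM in the controls and at 21.3 and 21.9 after induction. The third, MSTRG.7695 (chr16:42663917-42664160), was at 20.3 and 22.7 FPKM in the controls and at 24.7 and 23.3 after induction. The other libraries were thus close to each other at all 3 loci, and the heme library did not overlap them.

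All 3 loci lie over processed pseudogenes, copies of a messenger RNA that were pasted back into the genome. MSTRG.4861 lies over Gm3379, a copy of Rpl10, which encodes a protein of the large ribosomal subunit. MSTRG.4724 lies over Gm10095, a copy of Rpl21, another protein of that subunit. MSTRG.7695 lies over Gm49739, a copy of part of Nop56, a core protein of the particles that methylate ribosomal RNA. The match to the parent transcript, taken from GENCODE M21 sequences, was 99.688% over 642 bases for Gm3379, 98.758% over 483 bases for Gm10095, and 100% over 209 bases for Gm49739. Stretches of 120 bases are shown because they show how few bases could place a fragment on the copy and not on its parent. Capitals mark the bases that differ, and bases are counted from the first base of the annotated pseudogene transcript.
Gm3379, bases 306 to 425, chr12:109894669-109894788, minus strand: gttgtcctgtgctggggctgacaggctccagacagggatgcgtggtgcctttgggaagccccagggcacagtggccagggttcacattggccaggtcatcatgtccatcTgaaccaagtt
Rpl10, bases 392 to 511 of ENSMUST00000008826: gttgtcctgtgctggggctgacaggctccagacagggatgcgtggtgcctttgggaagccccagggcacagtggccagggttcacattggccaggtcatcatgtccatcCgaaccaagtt
Gm10095, bases 324 to 443: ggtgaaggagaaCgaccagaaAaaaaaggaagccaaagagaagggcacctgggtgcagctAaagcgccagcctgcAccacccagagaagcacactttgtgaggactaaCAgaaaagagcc
Rpl21, bases 618 to 737 of ENSMUST00000035983: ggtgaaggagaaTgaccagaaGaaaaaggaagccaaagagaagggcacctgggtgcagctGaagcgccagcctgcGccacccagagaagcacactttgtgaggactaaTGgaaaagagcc

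With the parent's base first, Gm3379 differs from Rpl10 by C7A and C415T, of which the stretch holds the second. Gm10095 differs from Rpl21 by T336C, G345A, G384A, G399A, T432C and G433A, all within the stretch. Fragments from such sequences can be placed on either copy, so the levels of these loci and of their parents are uncertain. The parents were far higher than the copies. Rpl10 was at 302 FPKM in the heme library, 343 and 363 in the controls, and 378 and 312 after induction. Rpl21 was at 238 FPKM in the heme library, 237 and 233 in the controls, and 238 and 234.5 after induction. Nop56 was at 108 FPKM in the heme library, 106 and 133 in the controls, and 123 and 109 after induction. Rpl10 was thus lowest in the heme library, while Rpl21 and Nop56 lay within or beside the range of the others. Whether fragments were placed differently in the heme library was not tested.

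The limma log2 difference from control on the log2(FPKM + 1) scale was -5.51 ± 0.12 (SE) for MSTRG.4861, with an adjusted p of 0.00622. It was -4.49 ± 0.17 for MSTRG.7695 and -4.43 ± 0.16 for MSTRG.4724, with an adjusted p of 0.0192 for each in limma. Against a library listed at 0, these sizes depend on the pseudocount of 1. The fourth lowest adjusted p in limma was 0.324, at Gm13597. At an unadjusted p below 0.05, limma gave 114 loci higher and 160 lower. The fit has 2 residual degrees of freedom and assumes that the lone heme library varies like the others. With any 1 of the 4 other libraries left out, limma called 0 loci, in fits with 1 residual degree of freedom. It also called 0 on the fragment level, which is FPKM times transcript length. That level does not depend on how a locus's fragments are shared among its listed transcripts. Fragments of unlisted transcripts are missing from both measures.

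Other loci stood beside these 3 without passing the test. Gm12346, over a copy of Hsp90aa1 (99.468% over 2255 bases), was at 55.9 FPKM in the heme library, 5.30 and 0 in the controls, and 0 in both induction libraries. Hsp90aa1, which encodes a cytosolic HSP90 chaperone, was at 336 FPKM in the heme library, 348 and 415 in the controls, and 252 and 316 after induction. The copy was thus above every other library while its parent lay inside their range. Gm13597, over a copy of Tax1bp3 (100% over 375 bases), was at 4.90 FPKM in the heme library, 21.6 and 19.5 in the controls, and 21.3 and 19.8 after induction. Its gap sat in an unnamed transcript of the locus, listed at 0 in the heme library and at 14.9 to 17.6 FPKM in the others. The annotated pseudogene transcript itself was at 4.90 FPKM in the heme library and 2.22 to 5.36 in the others. Gm26712 matches Pyurf, on the same chromosome, at 100% over 217 bases, and whether it is a separate copy was not tested. It was at 34.8 FPKM in the heme library, 25.3 and 22.2 in the controls, and 0.179 and 0.216 after induction. The unnamed locus MSTRG.8799 was at 9.55 FPKM in the heme library, 6.46 and 6.00 in the controls, and 4.68 and 6.45 after induction. Adjusted p in limma was 0.952 for Gm12346 and 0.995 for Gm26712.

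**Figure D1:**
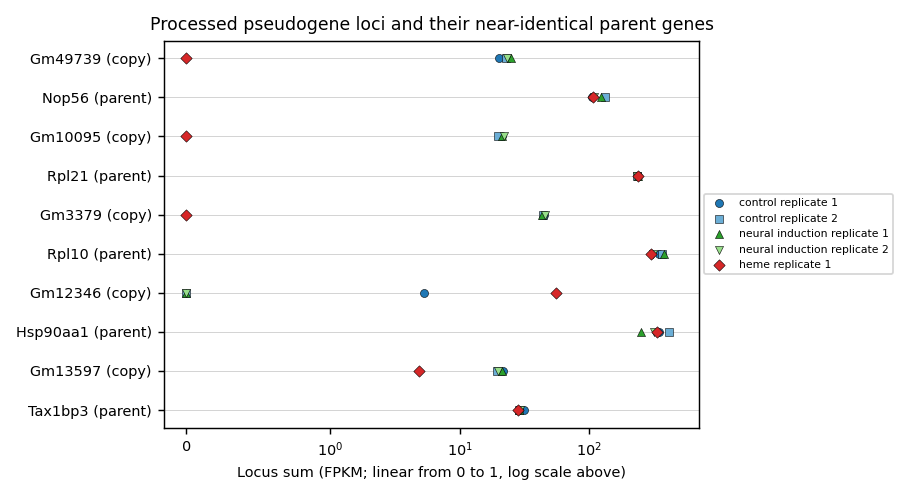
Locus sums in FPKM (linear from 0 to 1, logarithmic above) of 5 processed pseudogene loci and of their parent genes, 1 point per library. The heme library (red) is at 0 for Gm3379, Gm10095 and Gm49739, at 4.90 for Gm13597 and at 55.9 for Gm12346, while at the parents it lies within or close to the range of the other 4 libraries.

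By gene type, a wide margin was reached by a larger share of unnamed than of protein-coding loci. Of 5853 protein-coding loci 29 were above and 62 below the other libraries by at least 1.5-fold, 1.55% together. Of 596 unnamed loci over an annotated gene 13 were above and 28 below, 6.88% together, and of 194 over no annotated gene 6 and 4, 5.15%. Of 52 unnamed loci over a pseudogene alone 1 was above and 3 below, 7.69% together. Unnamed loci are also low, with a median level of 5.23, 2.79 and 6.91 FPKM in these groups against 19.6 for protein-coding loci. Named pseudogenes lay below the others at 75 of 314 loci (23.9%, against 19.5% of all loci) and above at 17 (5.41%, against 13.7%). After rescaling the counts were 65 and 23, without control replicate 2 they were 111 and 33, and by 1.5-fold they were 3 and 2. Of the 100 loci below by 1.5-fold, 26 were listed at 0 in the heme library, and a mean of at least 5 FPKM was reached by 47. Of the 53 above, 8 reached that mean.

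Among named genes with a mean of at least 5 FPKM, the widest margins above the other libraries were at Ndufaf4 and Pdf. Ndufaf4 (chr4:24898083-24905001), an assembly factor of respiratory complex I, was at 15.0 FPKM in the heme library, 5.13 and 4.40 in the controls, and 4.17 and 3.56 after induction. Pdf (chr8:107046520-107056677), the peptide deformylase that trims proteins made in mitochondria, was at 14.2 FPKM in the heme library, 5.24 and 4.21 in the controls, and 6.64 and 4.65 after induction. The other 4 libraries stayed within a narrow band at Ndufaf4, and at Pdf the nearest was an induction library. The log2 difference from control was 1.48 ± 0.25 (SE) for Ndufaf4 and 1.41 ± 0.30 for Pdf. Adjusted p in limma was 0.674 for Ndufaf4 and 0.842 for Pdf.

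Next came Hmgb1 (chr5:149046702-149053040), a chromatin protein that also acts as an alarm signal outside cells, with 182 FPKM in the heme library, 101 and 92.2 in the controls, and 98.5 and 96.4 after induction. Ubl5, a ubiquitin-like protein of splicing, was at 81.7 FPKM in the heme library, 47.2 and 35.3 in the controls, and 33.6 and 26.1 after induction. Xpo6, the exporter of nuclear actin, was at 36.0 FPKM in the heme library, 22.03 and 19.6 in the controls, and 17.0 and 20.2 after induction. In these 3 genes the heme library stood clear of the other 4 on locus FPKM. Hmgb1 had the smallest error of the higher genes, with a log2 difference of 0.91 ± 0.09 (SE) and an adjusted p of 0.512 in limma. Ccnc, the cyclin of the Mediator kinase module, was at 11.96 FPKM in the heme library, 6.29 and 7.27 in the controls, and 7.01 and 7.20 after induction. Mid1ip1, a regulator of fatty acid synthesis, was at 7.75 FPKM in the heme library, 4.66 and 4.81 in the controls, and 3.98 and 4.33 after induction. Atp6v0a2, a membrane subunit of the proton pump that acidifies lysosomes, was at 12.4 FPKM in the heme library, 6.94 and 6.81 in the controls, and 8.01 and 6.79 after induction. Each was above all 4 others by 1.49-fold to 1.57-fold. Zfp644, a zinc finger gene, was at 9.16 FPKM in the heme library and 3.11 to 5.80 in the others. Tor1aip1, which binds torsin at the inner nuclear membrane, was at 17.2 FPKM in the heme library and 9.83 to 11.3 in the others. Mmgt2, a membrane protein linked to magnesium transport, was at 14.5 FPKM in the heme library and 4.22 to 9.40 in the others. The locus of the mitochondrial transfer RNAs mt-Tl2 and mt-Ts2 was at 34.4 FPKM in the heme library and 16.0 to 22.8 in the others. Its transcripts of 71 and 59 bases are shorter than usual library fragments, so that level is uncertain. None of the 12 genes passed limma, where adjusted p was 0.512 to 0.995.

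The widest margins below the other libraries were larger. Gnb4 (chr3:32587706-32598178), named for a G protein beta subunit, was at 0.336 FPKM in the heme library, 6.19 and 10.0 in the controls, and 8.84 and 5.65 after induction. Its only listed transcript, of 8 annotated, is a retained intron of 728 bases, so the value does not measure the coding transcript. Gpatch8 (chr11:102475915-102556199), an RNA-associated G-patch gene, was at 1.27 FPKM in the heme library, 9.81 and 9.45 in the controls, and 9.51 and 9.54 after induction. St3gal1 (chr15:67102875-67113992), which adds sialic acid to glycans, was at 1.00 FPKM in the heme library, 7.16 and 6.00 in the controls, and 6.50 and 6.46 after induction. At Gpatch8 and St3gal1 the other 4 libraries were nearly equal. Vezt, the junction protein vezatin, was at 1.03 FPKM in the heme library and 5.52 to 7.33 in the others. Mocs2, an enzyme of molybdenum cofactor synthesis, was at 0.750 FPKM in the heme library and 3.99 to 10.6 in the others. Ahnak2, which encodes a giant scaffold, was at 0.510 FPKM in the heme library and 4.83 to 15.1 in the others.

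Among genes with higher levels, Rab12, a small GTPase of endosomes, was at 13.3 FPKM in the heme library, 40.7 and 34.0 in the controls, and 39.3 and 39.6 after induction. Ndufab1, the mitochondrial acyl carrier protein and a complex I subunit, was at 8.38 FPKM in the heme library, 27.2 and 21.9 in the controls, and 26.4 and 22.9 after induction. Both its listed transcripts, of 10 annotated, are retained introns. Sesn3, a sestrin that restrains mTORC1, was at 3.44 FPKM in the heme library, 15.6 and 9.68 in the controls, and 14.1 and 16.2 after induction. Vamp7, a v-SNARE of vesicle fusion, was at 5.33 FPKM in the heme library and 13.5 to 14.5 in the others. The heme library was apart from the rest in all 4, by 2.28-fold to 2.44-fold. Suv420h1, a histone methyltransferase, was at 2.81 FPKM in the heme library and 7.18 to 7.96 in the others. Ip6k2, a kinase of inositol phosphates, was at 1.84 FPKM in the heme library and 4.62 to 7.29 in the others. The log2 difference from control was -2.22 ± 0.20 (SE) for Gpatch8, -1.44 ± 0.19 for Ndufab1 and -1.41 ± 0.14 for Rab12. Adjusted p in limma was 0.430 for Gpatch8, 0.512 for Rab12 and 0.626 to 0.995 for the other 10 genes.

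**Figure D2:**
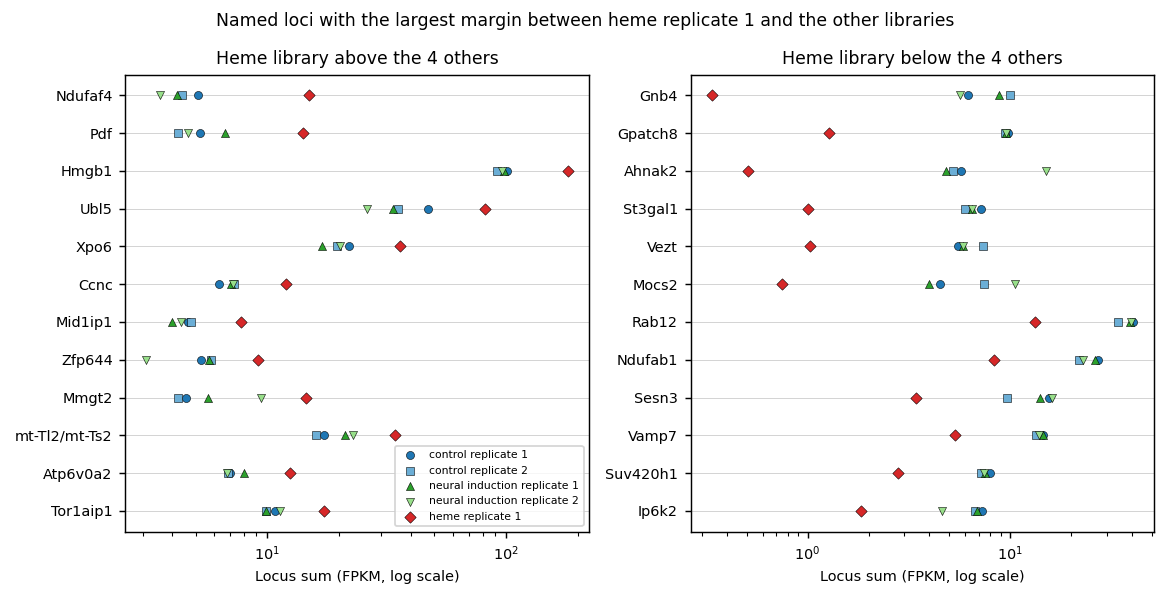
Locus sums in FPKM (logarithmic axis) of the 12 named genes with the widest margin above (left) and below (right) the other libraries, 1 point per library. The heme library (red) stands alone in every row because the genes were chosen for it, with Ndufaf4 at 15.0 against at most 5.13 and Gpatch8 at 1.27 against at least 9.45.

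A sum of FPKM can move when a gene's reads shift between transcripts of different length, so the same loci were read on the fragment level. At the Hmgb1 locus the transcript ENSMUST00000093196, of 1092 bases, was at 131 FPKM in the heme library and 14.3 to 18.6 in the others. The transcript ENSMUST00000085546, of 2838 bases, was at 49.5 FPKM in the heme library and 73.9 to 80.4 in the others. On the fragment level the Hmgb1 locus was at 285 in the heme library and 229 to 247 in the others, a margin of 1.15-fold in place of 1.79-fold. Hmgb1 also has many near-identical copies in the mouse genome, which makes its level uncertain. At the Ubl5 locus the transcript ENSMUST00000160874, of 412 bases and annotated for nonsense-mediated decay, was at 63.7 FPKM in the heme library and at most 0.805 in the others. On the fragment level Ubl5 was at 45.0 in the heme library and 34.4 to 40.1 in the others. Xpo6 and Zfp644 were no longer outside the others on that measure. Ndufaf4 was further apart on it, at 42.4 in the heme library and 8.30 to 9.27 in the others.

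Over all loci, 47 of the 53 above and 89 of the 100 below by 1.5-fold also reached that margin on the fragment level, where 62 (0.865%) and 114 (1.59%) did so in all. At 42 of the 53 and 60 of the 100 only 1 transcript is listed. There the measures differ only by a constant and the pseudocount, so near agreement was fixed in advance. Of the loci of that margin with more than 1 listed transcript, 6 of 11 above and 31 of 40 below reached it on both measures. Fragment levels rest on the same deposited values, so this is a second reading and no replicate.

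**Figure D3:**
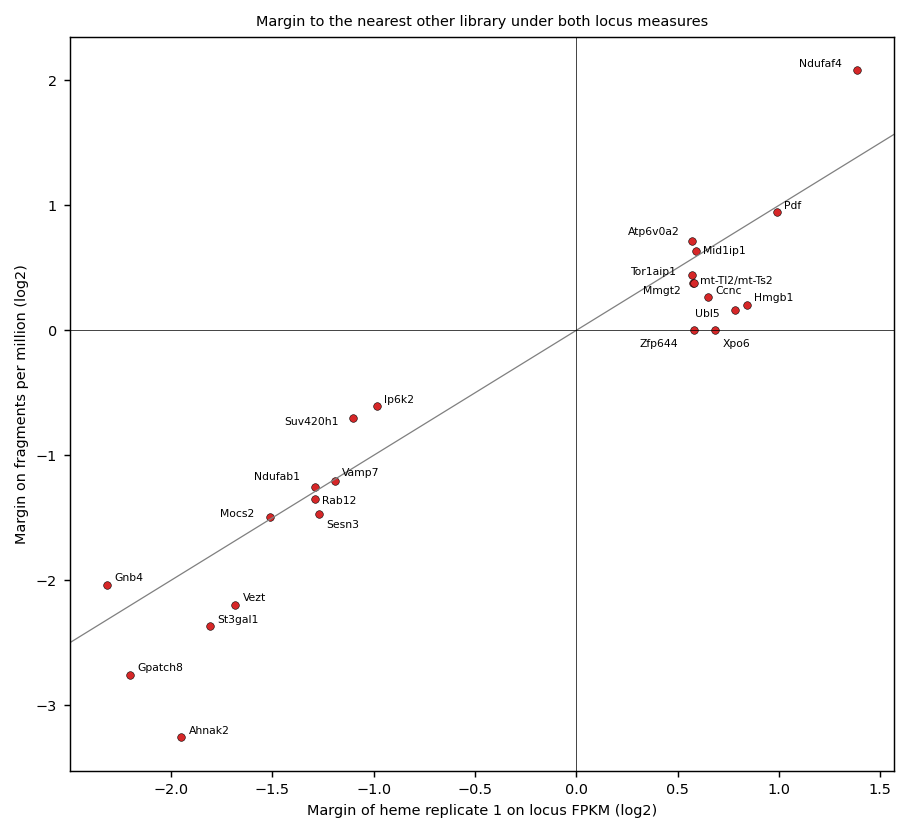
Margin of the heme library to the nearest other library for the 24 named genes, in log2, on locus FPKM (horizontal) and on the fragment level (vertical), with the line of equality in grey. The 12 lower genes keep a margin on both measures, Ndufaf4 is at 2.08 on the fragment level, and Xpo6 and Zfp644 are at 0. Gnb4, St3gal1, Vezt, Sesn3 and Mid1ip1 have 1 listed transcript each, so their measures differ only through the pseudocount.

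The heme and iron genes with a margin of at least 1.2-fold were all below the other libraries. Fbxl5, above them by 1.19-fold, just missed that margin. Over 36 heme and iron loci the heme library was above the other 4 at 4 and below at 10. By at least 1.2-fold it was above at 0 and below at 5 (Hmox2, Slc11a2, Fech, Alas1 and Tfrc), which is 13.9% of the 36 loci, where 2.23% of all loci were above and 3.04% below by that margin. By at least 1.5-fold it was below at 3 (Hmox2, Slc11a2 and Fech; 8.33%, against 1.39% of all loci) and above at 0. These genes were picked into classes with earlier results known, so the shares are descriptions. In the synthesis and breakdown class 0 of 10 loci were above and 4 were below, Hmox2, Fech, Alas1 and Cpox. Without control replicate 2 the count below was 5. No locus of these classes passed limma, where adjusted p was 0.665 or more.

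Of the enzymes that break heme down, Hmox2, the constitutive heme oxygenase, was at 2.65 FPKM in the heme library, 5.34 and 6.88 in the controls, and 10.5 and 8.93 after induction. Hmox1, the inducible one, was at 61.9 FPKM in the heme library, 43.7 and 222 in the controls, and 79.4 and 46.2 after induction. The heme library was thus the lowest for Hmox2 and inside the range of the others for Hmox1, where the control replicates differed most. Blvra and Blvrb, which reduce biliverdin, also lay inside the range of the others, at 13.2 and 6.25 FPKM.

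Of the enzymes that make heme, Fech, the last of the pathway, was at 12.9 FPKM in the heme library, 22.6 and 21.4 in the controls, and 23.3 and 22.7 after induction. Alas1, the first, was at 6.27 FPKM in the heme library, 9.499 and 11.3 in the controls, and 10.2 and 10.0 after induction. The other 4 libraries were close to each other for both genes, and the heme library did not overlap them. Cpox, which acts in the mitochondrial intermembrane space, was below the others by 1.01-fold, at 29.3 FPKM. Alad and Urod, which act between these steps, lay inside the range of the others, at 10.1 and 6.997 FPKM. The log2 difference from control was -0.95 ± 0.26 (SE) for Hmox2, -0.73 ± 0.12 for Fech and -0.65 ± 0.19 for Alas1. On the fragment level the margins were 1.75-fold for Hmox2, 1.65-fold for Fech and 1.49-fold for Alas1, close to those on FPKM. Alas1 has 1 listed transcript of 13 annotated, so its 2 measures could differ only through the pseudocount. At the Fech locus the main transcript ENSMUST00000025484 alone was at 12.4 FPKM in the heme library and 13.9 in induction replicate 1, whose locus sum held a further 9.42 FPKM in an unnamed transcript.

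Of the iron importers, Slc11a2, a ferrous iron transporter, was at 2.73 FPKM in the heme library, 6.83 and 6.26 in the controls, and 7.34 and 8.73 after induction. Tfrc, the transferrin receptor, was at 61.9 FPKM in the heme library, 81.2 and 138 in the controls, and 85.5 and 79.9 after induction. The heme library was the lowest of the 5 for both. The iron stores did not stand out: Fth1 was at 1981 FPKM in the heme library and 1792 to 2251 in the others, and the locus of Ftl1 at 3787 and 3550 to 4831. Ncoa4, the receptor that delivers ferritin to autophagy, was at 23.5 FPKM in the heme library, 12.9 and 15.0 in the controls, and 13.9 and 22.3 after induction. It was above both controls, but induction replicate 2 was close to it. Fbxl5, the iron-sensing part of a ubiquitin ligase, was at 5.80 FPKM in the heme library, 2.35 and 1.83 in the controls, and 4.70 and 2.91 after induction. The heme library was thus the highest of the 5 for Fbxl5. Cisd2, which carries an iron-sulphur cluster, was at 10.9 FPKM in the heme library and 11.8 to 16.1 in the others, but was inside their range on the fragment level. Of the carriers and sensors of heme, 1 of 7 loci was above (Hebp1, at 11.4 FPKM against 7.90 to 10.9, though inside the range on the fragment level) and 1 below (Pgrmc1, at 80.3 against 81.7 to 104), and 2 and 2 without control replicate 2.

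**Figure D4:**
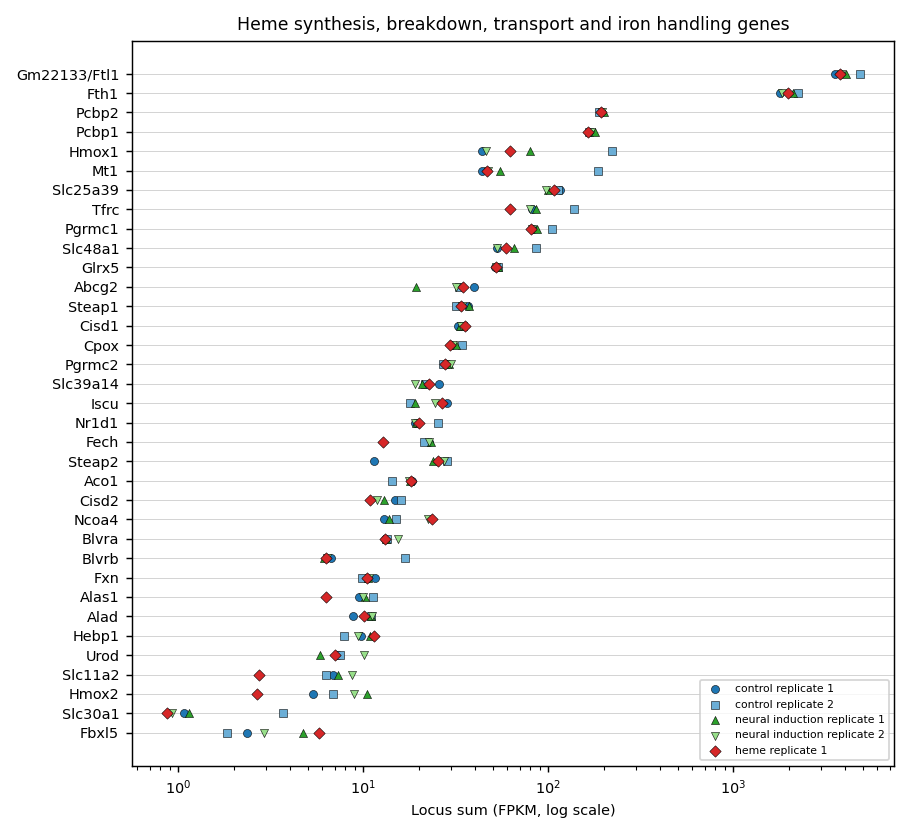
Locus sums in FPKM (logarithmic axis) of heme and iron loci, ordered by their control mean, 1 point per library. The heme library (red) lies left of all others at Hmox2 (2.65), Slc11a2 (2.73), Alas1 (6.27), Fech (12.9) and Tfrc (61.9), and inside the spread of the others at most remaining loci.

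The other gene classes are described by the share of their loci at which the heme library was outermost, beside 13.7% above and 19.5% below over all loci. Classes were not tested, their genes are not independent, and their medians moved little. Against control replicate 1 the median log2 difference was within 0.06 of 0 in 30 of 33 classes of at least 20 loci. Against control replicate 2 the class medians ran from -0.40 to 0.40. Counts without control replicate 2 are therefore given beside the others; over all loci 18.6% were then above and 29.0% below.

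Mitochondrial ribosomal proteins, which build the ribosome that translates the mitochondrial genome, lay below the other libraries at 22 of 58 loci (37.9%) and above at 1. Without control replicate 2 the count below was 32 (55.2%), and after rescaling it was 21 (36.2%, against 16.2% of all loci). The class median log2 difference of the heme library was -0.04 and -0.08 from the controls and -0.14 and -0.11 from the induction libraries. Mrps12, of the small subunit, was at 14.7 FPKM in the heme library, 27.9 and 26.6 in the controls, and 30.3 and 28.9 after induction. Its 1 listed transcript is the coding one, and its margin of 1.76-fold was the widest of the class. Mrpl15, of the large subunit, was at 6.92 FPKM in the heme library, 22.8 and 15.9 in the controls, and 11.004 and 13.9 after induction. Its margin was 1.52-fold on FPKM and 1.25-fold on the fragment level. Mrps33 was at 9.43 FPKM in the heme library and 11.7 to 23.1 in the others, and Mrpl51 at 8.77 and 11.3 to 14.1.

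Nuclear genes of the respiratory chain lay below at 22 of 77 loci (28.6%) and above at 7 (9.09%). Without control replicate 2 they lay below at 31 (40.3%), and after rescaling at 18 (23.4%). Beside Ndufab1, Atp5h, a subunit of ATP synthase, was at 193 FPKM in the heme library and 224 to 232 in the others. Ndufb7, a complex I subunit, went the other way, at 68.0 FPKM in the heme library and 47.7 to 53.3 in the others. Ssbp1, which coats single-stranded mitochondrial DNA, was at 18.1 FPKM in the heme library, 27.3 and 27.9 in the controls, and 27.5 and 25.4 after induction. Ssbp1 was the furthest below of the biogenesis and mitophagy class, in which 8 of 25 loci were below and 2 above, and 10 and 6 without control replicate 2. After rescaling, 5 loci of that class were below and 2 above. Loci of the mitochondrial genome itself were above at 4 of 25 and below at 1. Without control replicate 2 they were above at 11 (44.0%, against 18.6% of all loci) and below at 1. Their median log2 difference was 0.36 from control replicate 1, -0.07 from control replicate 2, and 0.22 and -0.01 from the induction libraries, so it had no common sign. Fusion and fission genes were above at 4 and below at 6 of 23 loci, and at 5 and 7 without control replicate 2. These mitochondrial classes held 0 limma calls.

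Genes that make and degrade proteins also lay below more often than above. Proteasome genes were below at 18 of 41 loci (43.9%) and above at 2. These counts were 19 and 4 without control replicate 2. The widest margin was 1.09-fold, at Psme2, a proteasome activator subunit, with 32.9 FPKM in the heme library and 35.8 to 40.5 in the others. On the fragment level Psme2 lay inside the range of the others, at 29.0 against 26.6 to 30.1. Their median log2 difference was -0.28 from control replicate 2 and -0.01 from control replicate 1. Cytosolic ribosomal proteins were below at 25 of 84 loci (29.8%) and above at 3 (3.57%), but after rescaling at 17 and 10. They were 33 and 3 without control replicate 2. These genes have many near-identical copies, so their levels are uncertain. Translation factors were below at 19 of 61 loci and above at 7, after rescaling at 13 and 9, and without control replicate 2 at 28 and 11. Eef1d, an elongation factor subunit, was at 91.6 FPKM in the heme library and 99.7 to 111 in the others. Heat shock and chaperonin genes were below at 17 of 53 loci (32.1%) and above at 3, and at 22 and 3 without control replicate 2. After rescaling they were below at 12 (22.6%) and above at 4. The locus of Hspa8, the constitutive HSP70 chaperone, was at 855 FPKM in the heme library and 964 to 1113 in the others. Splicing genes were below at 39 of 139 loci (28.1%) and above at 12, and at 47 and 12 without control replicate 2. Dhx9, an RNA helicase, was above at 104 FPKM against 80.6 to 85.0. Of this, 48.8 FPKM lay in an unnamed transcript of 2265 bases that was listed at 0 in the others, and on the fragment level Dhx9 was inside their range, at 338 against 330 to 361.

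Genes of DNA replication and the G1/S step lay below at 18 of 48 loci (37.5%) and above at 2, and at 21 and 5 without control replicate 2. Ccne2, cyclin E2, was at 13.5 FPKM in the heme library and 14.2 to 24.6 in the others. Mitosis genes lay below at 7 of 53 loci (13.2%) with all libraries, but at 31 (58.5%, against 29.0% of all loci) without control replicate 2. Control replicate 2 was thus the library that set their count. Their median log2 difference was -0.06 from control replicate 1, 0.40 from control replicate 2, and -0.07 from each induction library. Ncaph, a condensin subunit, was at 8.23 FPKM in the heme library and 9.505 to 11.4 in the others, and Smc4, another, at 50.9 and 56.1 to 57.7. The only listed transcript of Ncaph, of 6 annotated, is annotated for nonsense-mediated decay, so its value does not measure the coding transcript. Chromatin genes were above at 14 and below at 25 of 104 loci, near the shares over all loci, and at 19 and 34 without control replicate 2. Suz12, a core subunit of the Polycomb repressive complex that methylates histones, was at 28.7 FPKM in the heme library, 18.5 and 20.5 in the controls, and 18.8 and 18.5 after induction. Its margin was 1.38-fold on FPKM and 1.40-fold on the fragment level. Eed, its partner, was at 27.6 FPKM in the heme library and 30.1 to 41.7 in the others, but was inside their range on the fragment level, at 35.5 against 34.1 to 45.6.

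In the classes of the cytoskeleton and the matrix, the heme library was more often the highest than the lowest. Actin, myosin and contractile genes were above at 16 of 55 loci (29.1%) and below at 6 (10.9%). The counts were 16 and 8 without control replicate 2, 17 and 4 after rescaling, and 14 and 4 on the fragment level. Myo10, the motor of filopodia, was at 76.0 FPKM in the heme library, 48.4 and 51.4 in the controls, and 55.6 and 61.1 after induction. Its margin was 1.24-fold on FPKM and 1.03-fold on the fragment level. Myh9, non-muscle myosin heavy chain, was at 245 FPKM in the heme library and 203 to 219 in the others. On the fragment level Myh9 was inside their range, at 1560 against 1499 to 1598. Extracellular matrix and integrin genes were above at 10 of 61 loci (16.4%) and below at 1 (1.64%). These were 15 and 4 without control replicate 2. Thbs1, thrombospondin, was at 364 FPKM in the heme library and 207 to 346 in the others. The widest margin of the matrix class was 1.35-fold, at a locus under the level asked of named genes, and that of Thbs1 was 1.05-fold.

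Genes of cholesterol and fatty acid synthesis were above at 6 and below at 3 of 34 loci, but at 6 and 10 without control replicate 2. Elovl1, which lengthens fatty acids, was at 38.9 FPKM in the heme library, 23.2 and 26.0 in the controls, and 24.4 and 23.7 after induction, and was 1.52-fold apart on the fragment level. Arhgdia, a guanine nucleotide dissociation inhibitor, was at 343 FPKM in the heme library, 234 and 228 in the controls, and 235 and 231 after induction. Its log2 difference from control was 0.57 ± 0.07 (SE), with an adjusted p of 0.626 in limma. Both were thus well above libraries that were nearly equal. Efna1, an ephrin ligand, was at 5.06 FPKM in the heme library and 9.31 to 10.3 in the others, and Atp6v1e1, a lysosomal proton pump subunit, at 33.3 and 48.3 to 51.1. Interferon and MHC class I genes were above at 6 of 27 loci and below at 0. Without control replicate 2 they were above at 7 (25.9%, against 18.6% of all loci) and below at 6 (22.2%, against 29.0%). NRF2 and antioxidant genes were below at 7 of 28 loci and above at 1, and at 7 and 3 without control replicate 2. After rescaling they were below at 3 (10.7%, against 16.2% of all loci) and above at 1. Srxn1, sulfiredoxin, was at 15.0 FPKM in the heme library, 16.1 and 40.6 in the controls, and 19.1 and 16.6 after induction. Of the neuronal genes, Map2, a microtubule protein of dendrites, and Tubb3, a neuronal tubulin, were above the others at 18.6 FPKM against 10.4 to 15.4 and at 14.0 against 11.3 to 13.6. Map2 had a margin of 1.08-fold on the fragment level. Neuronal loci below numbered 0 of 8, and 1 without control replicate 2.

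**Figure D5:**
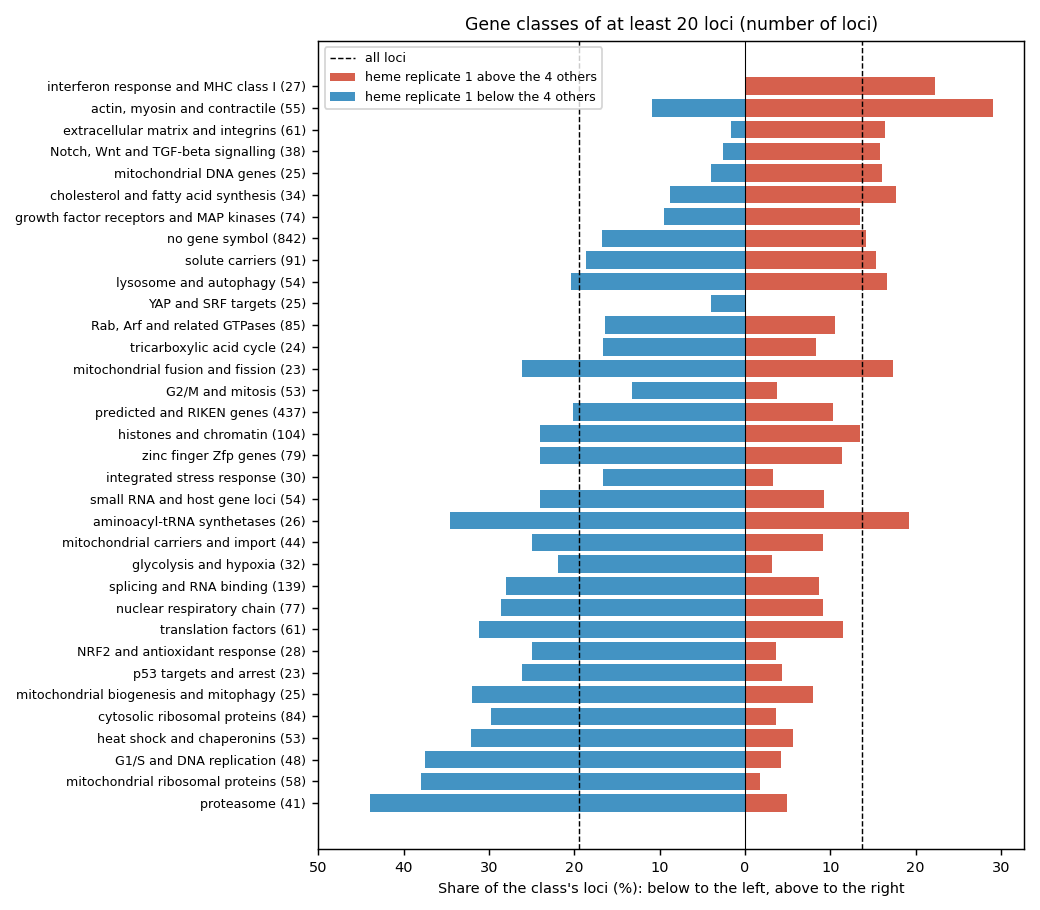
Share of each gene class's loci, in %, at which the heme library lies above (red, right) or below (blue, left) the other 4 libraries, for classes of at least 20 loci with the number of loci in brackets. Dashed lines mark all loci, 13.7% above and 19.5% below. The largest shares are 43.9% below for proteasome genes and 29.1% above for actin and myosin genes.

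The authors' deposited table for heme gives a log2 fold change and a p-value per transcript. At 100% of transcripts the deposited fold change lay within 0.2 of the log2 ratio of heme replicate 1 over control replicate 1. With the authors' deposited p-values adjusted here by Benjamini-Hochberg, an adjusted p below 0.05 was found for 1094 transcripts at 755 loci. Of the 153 loci outside the other 4 libraries by at least 1.5-fold, 26 hold a transcript called in this way from the authors' deposited p-values. Over all loci it was 755 of 7171. At the other 729 of these 755 loci, the heme library was not outside by that margin once both controls and both induction libraries were read on locus sums. These calls are per transcript and by p-value, and the 153 loci are locus sums chosen by margin, so the counts set unlike rules side by side.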

How the data were processed

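The authors deposited FPKM (as a value per transcript) and mean coverage per base for each library, in 1 table. The submitters' processing notes name the tools HISAT2, StringTie and edgeR, without versions, and the build GRCm38 (mm10). The rule that chose the listed transcripts is not given in the sources used here. Depth was read from coverage over FPKM, and no counting interval can be given. The authors' deposited log2 fold changes and p-values per transcript for heme were used only where named.

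FPKM were summed per locus over 15113 transcripts at 7171 loci, all with at least 1 FPKM in at least 1 library. A linear model on log2(FPKM + 1), with 5 libraries in 3 groups, was fitted by limma 3.58.1 under R 4.3.3 with an intensity trend in eBayes. It was two-sided, Benjamini-Hochberg adjusted over all loci, threshold 0.05. The fit was tested on simulated data. Pseudogene sequences were matched to GENCODE M21 transcripts with blastn 2.17.0.

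Named are the 12 genes per direction with the widest margin and a mean of at least 5 FPKM, the 3 unnamed or predicted loci per direction, up to 4 members per class with the widest margin, every limma call, and 25 genes whatever their values, of which 19 are listed. Alternatives were filters, pseudocount, heme column, locus definition, scaling, left-out libraries, a replicate block and other fits; the fragment level (FPKM times transcript length) and the alternatives for class counts were added after seeing the data. The members, lists and rules were chosen with earlier results of these data known. Some loci are not reported here.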

Additional observations from a re-analysis of the deposited data

How the results depend on the processing

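The limma calls (3 lower, 0 higher) kept their number under the other filters, a pseudocount of 0.1, rescaling, no intensity trend and the heme replicate 2 column or mean. They were 0 to 0 when each control or induction replicate was left out in turn, 0 with only control and heme libraries, 0 on the fragment level and 1 with sums over gene symbols. Fewer residual degrees of freedom come with fewer libraries. For the fragment level the cause was not tested. The symbol sums leave out loci without a gene symbol, so the 3 loci were absent there and the 1 call is a different gene. With all 6 columns, whose heme pair is 1 set of measurements, limma called 134 higher and 58 lower. With the replicate block limma called the same 3 loci lower and 0 higher. The replicate numbers do not pair the samples: the control difference and the induction difference had a correlation of -0.04 over loci.

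The heme replicate 2 column, at a median log2 shift of 0.43, put heme above the others at 5671 loci and below at 178. The mean of both columns (shift 0.23) gave 4514 and 289. The paragraphs on classes and named genes rest on the replicate 1 column. With the replicate 2 column 40 class medians were counted as moved and 0 as kept. Of the results at named loci, 179 were counted as moved and 25 as kept. Leaving out a replicate gave 1224 to 1376 above and 1654 to 2077 below. By at least 1.5-fold, 53 above and 100 below became 34 above with 1 FPKM asked of 2 libraries, 8 and 47 at a mean of at least 5 FPKM, 287 and 62 with the heme replicate 2 column, 119 above with the mean of both columns, and 98 above with sums over symbols. Leaving out a replicate gave 79 to 88 above and 125 to 140 below. More loci lay below than above with the heme replicate 1 column as deposited. This order turned with the heme replicate 2 column and the mean of both columns, and after rescaling (1200 above, 1160 below). By at least 1.5-fold it turned with the heme replicate 2 column and the mean (119 above, 72 below). FPKM carry no depth per locus, so differences at low loci were not weighed by counting error.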
